A study of Mus musculus with 18 samples.

Results

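The 10 genes described here are direct targets of p53 in mouse cells: Mdm2, Cdkn1a, Aen, Eda2r, Zmat3, Ccng1, Bbc3, Bax, Trp53inp1 and Phlda3. They were followed in mouse embryonic fibroblasts kept in isotonic or hypertonic medium. Each gene was taken as the probe set annotated to its symbol alone, with the highest mean where there was more than 1, out of 19937 genes so defined. Of the 10 genes, 8 have such a probe set, and all of those 8 were bright enough to be among the 15711 genes tested. The probe set for Cdkn1a names another gene as well, Bax has none that names it alone, and neither was analysed here. The same holds for Trp53, the gene of p53 itself.

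p53 is a transcription factor that is kept scarce in resting cells because Mdm2, a ubiquitin ligase and itself a p53 target, marks it for destruction. DNA damage and other stresses free p53 from Mdm2, and it then switches on genes that stop the cell cycle, repair DNA or start cell death. In cultured fibroblasts the same genes are used as a readout of p53 activity. Among the genes measured, Mdm2 and Ccng1 (cyclin G1, which recruits a phosphatase to Mdm2) feed back on p53. Aen (a nuclease that acts in apoptosis), Eda2r (a receptor of the tumour necrosis factor receptor superfamily), Bbc3 (the BCL-2 family killer PUMA) and Trp53inp1 (a stress protein that promotes p53 phosphorylation and autophagy) act on the side of cell death. Zmat3, an RNA-binding zinc finger protein, and Phlda3, which competes with AKT for membrane lipid, restrain growth.

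Total RNA of fibroblasts of the strain 129sv/ev was hybridised to 18 Affymetrix mouse gene arrays, in 6 groups of 3. The line labelled NFAT5 wild-type 5.4 (WT) was kept isotonic or hypertonic, in either case with no drug or after 1 h of pretreatment with 100 nM Torin1, an inhibitor of the kinase mTOR. The line labelled NFAT5 knock-out 5.1 (KO), which lacks the osmotic stress transcription factor NFAT5, was kept isotonic or hypertonic without drug. In the titles the media appear as 300 (isotonic) and 500 (hypertonic), unitless, and no label says how long the hypertonic exposure lasted. Each genotype is 1 line, so genotype and line cannot be told apart. The labels do not describe how either line was derived. The arrays of each group carry the numbers 1, 2 and 4, whose meaning the labels do not give. No label says that same-group arrays are separate cultures, so a p-value here speaks only for the spread among these arrays, which may be technical. Isotonic KO array 1 is KO by its title but carries a wild-type genotype label. It was kept as KO, and results that rest on it are also given without it.

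Values are log2 signals. Medians per array ran from 6.96 to 7.13, and 3 arrays per group limit the precision. Nfat5 read 9.94 to 10.77 on the WT arrays without Torin1 and 9.72 to 10.22 on the KO arrays. It was not called lower in KO cells in isotonic medium (-0.26 ± 0.16 on the log2 scale, ± standard error, limma adjusted p = 0.367) or in hypertonic medium (-0.44 ± 0.16, limma adjusted p = 0.0503), and where its probes lie relative to the deletion is not known here, so it does not check the labels. Of 11 fibroblast markers all passed the filter on low signals, with array means from 10.42 to 10.70 in WT and from 11.61 to 11.88 in KO cells. Lum was the lowest over all arrays, at a mean of 5.26. Of 5 leukocyte markers Ptprc and Adgre1 (5.20) had means below the filter level of 5.86, while Cd68 (8.24), Csf1r (7.98) and Cd3e (6.71) lay above it. Of 5 endothelial markers Kdr (5.56) and Emcn (4.81) lay below it, and Tek (6.69), Cdh5 (6.22) and Pecam1 (6.06) above. The 6 epithelial markers had array means from 6.47 to 7.03. In several comparisons the arrays of number 4 gave other differences than those of numbers 1 and 2, so counts of the results described are given without them where they change. A gene is called at a limma adjusted p below 0.05, over all genes tested, and only then is it said to have risen or fallen.

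Promoter sequence was read for the genes from RefSeq on the mouse assembly GRCm38.p6, as 300 bases around each annotated start, 250 before and 50 after. Of the 10 genes, 8 are in the table, and Zmat3 and Trp53inp1 are not. The p53 decamer, the 10-base consensus of which a p53 response element holds a pair, was searched by its standard consensus on both strands, which for this palindromic motif give the same matches. It was found for 5 of the 8: Mdm2, Aen, Ccng1, Bax and Cdkn1a. Among all 32851 promoter windows 8.36% hold it, and among all 27025 genes with a window 9.55% do. A pair of decamers at most 13 bases apart was found for Cdkn1a, 73 and 51 bases before 1 of its starts, and in 0.0731% of all windows. The window at the other Cdkn1a start holds no decamer. A match describes these letters and is not evidence of binding, and a gene with no match in the window may hold one elsewhere. The stretches around the matches of measured genes are shown with the decamer in capitals, with 10 bases on each side. They lie at chr10:117710925-117710954 on the minus strand for Mdm2 (186 bases before the start), chr7:78895927-78895956 on the plus strand for Aen (121 bases before 1 of its starts and 10 after another) and chr11:40755452-40755481 on the minus strand for Ccng1 (185 bases before).
Mdm2: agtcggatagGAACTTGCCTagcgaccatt
Aen: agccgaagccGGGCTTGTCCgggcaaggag
Ccng1: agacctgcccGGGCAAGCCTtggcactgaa

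The 250 bases before the start are shown for Eda2r and Phlda3, which rose in hypertonic medium in both lines and hold no decamer there, beside those of Mdm2, which rose as well and holds 1, in capitals. They are chrX:97377210-97377459 on the minus strand, chr1:135765835-135766084 on the plus strand and chr10:117710759-117711008 on the minus strand.
Eda2r: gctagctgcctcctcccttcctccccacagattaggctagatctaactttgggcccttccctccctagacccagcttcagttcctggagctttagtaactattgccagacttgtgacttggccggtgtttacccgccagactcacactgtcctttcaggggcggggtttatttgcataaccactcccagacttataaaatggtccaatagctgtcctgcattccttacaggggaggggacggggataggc
Phlda3: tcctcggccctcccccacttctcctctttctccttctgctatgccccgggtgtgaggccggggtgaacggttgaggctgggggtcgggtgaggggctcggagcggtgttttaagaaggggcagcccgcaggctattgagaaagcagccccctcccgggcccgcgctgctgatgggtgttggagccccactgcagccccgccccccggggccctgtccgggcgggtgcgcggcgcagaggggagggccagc
Mdm2: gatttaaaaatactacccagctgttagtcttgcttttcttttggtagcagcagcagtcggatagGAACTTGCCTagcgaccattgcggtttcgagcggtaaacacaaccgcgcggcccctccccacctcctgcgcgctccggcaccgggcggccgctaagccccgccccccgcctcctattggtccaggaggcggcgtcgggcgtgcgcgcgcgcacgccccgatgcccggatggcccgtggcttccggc

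The first comparison asks what hypertonic medium does to these genes in WT cells. Mdm2, Aen, Eda2r, Zmat3 and Phlda3 rose by 1.46-fold to 2.40-fold, while Ccng1, Bbc3 and Trp53inp1 did not pass. That is 5 of 8 called higher and 0 lower, where 3.94% of all genes tested were called higher and 4.3% lower. The 8 genes were chosen with earlier results of these data known, so these shares describe them and test nothing. The median change of the 8 was 0.61 on the log2 scale, against 0.02 over all genes. The background share without overlap, all 3 hypertonic arrays above all 3 isotonic ones, was 13.5%, and 5 of the 8 genes showed it: Mdm2, Aen, Zmat3, Ccng1 and Phlda3.

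**Figure D1:**
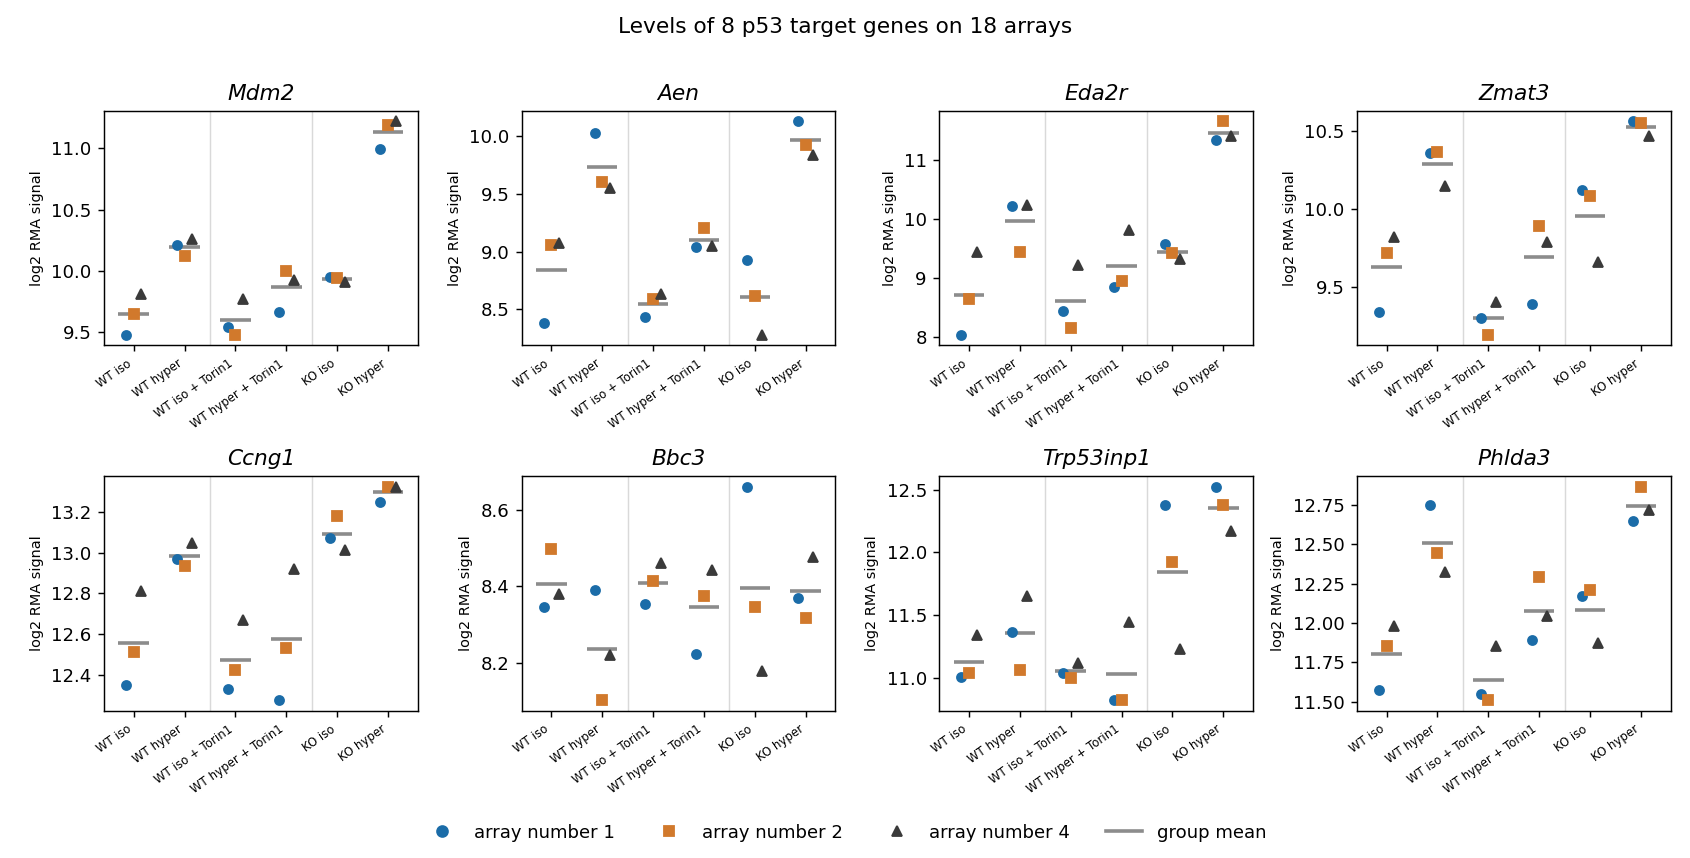
Log2 signal of the 8 measured p53 targets on each of the 18 arrays, 1 panel per gene with its own vertical axis; symbols mark the array number (1, 2 or 4) and the grey bar is the mean of the 3 arrays of a group. The KO hypertonic arrays of Mdm2 (11.00 to 11.22) and Eda2r (11.34 to 11.67) lie above all other arrays of these genes.

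Of the feedback genes, Mdm2 read 9.48, 9.65 and 9.81 on isotonic WT arrays 1, 2 and 4 and 10.21, 10.12 and 10.26 on the hypertonic ones. The groups did not overlap, and the rise was 0.55 ± 0.11 on the log2 scale (limma adjusted p = 0.00769, n = 3 arrays per group, with ± the standard error of the fit, as throughout). Ccng1 read 12.35, 12.51 and 12.81 on the isotonic arrays and 12.97, 12.93 and 13.05 on the hypertonic ones. These groups did not overlap either, but the change of 0.43 ± 0.15 did not pass (limma adjusted p = 0.0865). It did pass with the array number as a block (0.0248), without isotonic WT array 4 (0.0451) and without all arrays of number 4 (0.52, 0.00613).

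Of the genes on the side of cell death, the nuclease gene Aen read 8.38, 9.06 and 9.07 in isotonic medium, against 10.03, 9.61 and 9.55 in hypertonic medium. Isotonic array 1 was the lowest and hypertonic array 1 the highest, and the groups did not overlap. The rise was 0.89 ± 0.19 (limma adjusted p = 0.00979). The receptor gene Eda2r read 8.04, 8.65 and 9.45 in isotonic medium, against 10.23, 9.45 and 10.25 in hypertonic medium. Its isotonic array 4 reached the level of hypertonic array 2, so the groups overlapped. The rise, 1.26 ± 0.35 (limma adjusted p = 0.0366), was the steepest of the 8 and also had the widest error. Bbc3, which encodes the killer protein PUMA, stayed between 8.10 and 8.50 on all 6 arrays, with a difference of -0.17 ± 0.11 (limma adjusted p = 0.428). With array weights it was called lower (-0.30, limma adjusted p = 0.0216). Trp53inp1 read 11.01, 11.04 and 11.34 in isotonic medium, against 11.37, 11.06 and 11.65 in hypertonic medium, overlapping, with a difference of 0.23 ± 0.24 (limma adjusted p = 0.653).

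Of the growth-restraining genes, Zmat3 read 9.34, 9.72 and 9.82 in isotonic medium, against 10.36, 10.37 and 10.15 in hypertonic medium. The rise was 0.67 ± 0.15 (limma adjusted p = 0.0156), without overlap. Phlda3 read 11.58, 11.85 and 11.98 in isotonic medium, against 12.75, 12.44 and 12.33 in hypertonic medium. The rise was 0.70 ± 0.15 (limma adjusted p = 0.00979), again without overlap. For both genes isotonic array 1 was the lowest of its group.

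Taken array by array within a number, the hypertonic change in WT cells was above 0 for all 8 genes in number 1, and for 7 of 8 in numbers 2 and 4, Bbc3 being below 0 in both. Number 1 gave the steepest change for Mdm2 (0.73, against 0.47 and 0.44 in numbers 2 and 4), Aen (1.65, against 0.55 and 0.48), Eda2r (2.19, against 0.80 in each), Zmat3 (1.02, against 0.65 and 0.33) and Phlda3 (1.17, against 0.59 and 0.34). Every one of these 5 genes was above 0 in each number. Without hypertonic WT array 1 only Mdm2 of the 8 was called, with Aen and Phlda3 at a limma adjusted p of 0.0590 each, Zmat3 at 0.0694 and Eda2r at 0.148. Without isotonic WT array 1, Zmat3 (0.0719) and Eda2r (0.152) did not pass. Zmat3 also missed without hypertonic WT array 2 (0.0657), and Eda2r without isotonic WT array 2 (0.0934) and likewise without hypertonic WT array 4 (0.0789). Fitted on the 6 WT arrays of this comparison alone, none of the 5 passed (limma adjusted p from 0.0681 to 0.134), and 267 genes in all were called instead of 1295. With the array number as a block 6 of the 8 genes, Ccng1 being added, and 2360 of all genes were called, and without the arrays of number 4 the counts were 6 and 3333.

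In KO cells hypertonic medium raised the same 5 genes: Eda2r by 4.10-fold, Aen by 2.57-fold, Mdm2 by 2.30-fold, Phlda3 by 1.58-fold and Zmat3 by 1.49-fold. In this line 12.9% of all genes tested were called higher and 17.2% lower, beside 5 of 8 higher and 0 lower here. The 8 genes were chosen with earlier results of these data known. These shares, and the overlap with the WT calls given next, therefore describe them and test nothing. The WT and KO responses share no arrays, but both were tested in the same fit and share its variance estimate for each gene. Of 619 genes that rose in WT and 2030 that rose in KO cells, 272 rose in both, which is 43.9% of the first list and 13.4% of the second, and all 5 of these p53 targets are among them. The median change of the 8 was 0.62, against 0.02 over all genes. Without overlap 6 of the 8 lay above in hypertonic medium, with a background of 22.3%. Of the cell type markers, the fibroblast marker Pdgfrb (-0.25, limma adjusted p = 0.0321) and the epithelial marker Cdh1 (-0.86, 0.00821) were called lower. The endothelial marker Pecam1 (0.47, limma adjusted p = 0.0124) was called higher. In WT cells without Torin1 none was called. In WT cells with Torin1, 1 of the 3 leukocyte markers tested was called higher in hypertonic medium (1.04). The part of the markers in these results was not tested.

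Mdm2 read 9.95, 9.94 and 9.91 on isotonic KO arrays 1, 2 and 4 and 11.00, 11.19 and 11.22 on the hypertonic ones. The isotonic arrays lay close together (SD 0.024), and the rise was 1.20 ± 0.11 (limma adjusted p = 3e-06). Aen read 8.93, 8.61 and 8.28 in isotonic medium, against 10.13, 9.93 and 9.84 in hypertonic medium, a rise of 1.36 ± 0.19 (limma adjusted p = 7.67e-05). Eda2r read 9.57, 9.42 and 9.32 in isotonic medium, against 11.34, 11.67 and 11.41 in hypertonic medium, a rise of 2.03 ± 0.35 (limma adjusted p = 0.000401). For all 3 genes every hypertonic array lay well above every isotonic one.

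Zmat3 read 10.12, 10.08 and 9.66 in isotonic KO cells and 10.56, 10.55 and 10.47 in hypertonic ones. Isotonic array 4 was the lowest, and the rise was 0.57 ± 0.15 (limma adjusted p = 0.00994). Without that array it did not pass (0.43, limma adjusted p = 0.0566). Phlda3 read 12.17, 12.21 and 11.87 in isotonic medium, against 12.65, 12.87 and 12.72 in hypertonic medium, a rise of 0.66 ± 0.15 (limma adjusted p = 0.00325).

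The remaining 3 genes did not pass in KO cells. Ccng1 was already at 13.08, 13.18 and 13.02 in isotonic medium and read 13.25, 13.33 and 13.32 in hypertonic medium, a difference of 0.21 ± 0.15 without overlap (limma adjusted p = 0.325). Bbc3 read 8.66, 8.35 and 8.18 in isotonic medium, against 8.37, 8.32 and 8.48 in hypertonic medium (-0.01 ± 0.11, limma adjusted p = 0.975). Trp53inp1 read 12.38, 11.92 and 11.23 in isotonic medium, against 12.52, 12.38 and 12.17 in hypertonic medium (0.51 ± 0.24, limma adjusted p = 0.124). Isotonic KO array 1, the one with the conflicting genotype label, was the highest of its group for all genes but Ccng1 and Phlda3. Without it Trp53inp1 passed (0.78, limma adjusted p = 0.0214), and Mdm2 (1.21), Aen (1.52), Eda2r (2.10), Zmat3 (0.66) and Phlda3 (0.70) were called as before, so that 6 of 8 were called. Without the arrays of number 4 the same 5 genes were called as with them. With arrays centred on their medians, which moved the median change of all genes from 0.02 to 0.17, the 8 genes had 6 called, with Trp53inp1 at 0.66 (limma adjusted p = 0.0327).

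**Figure D2:**
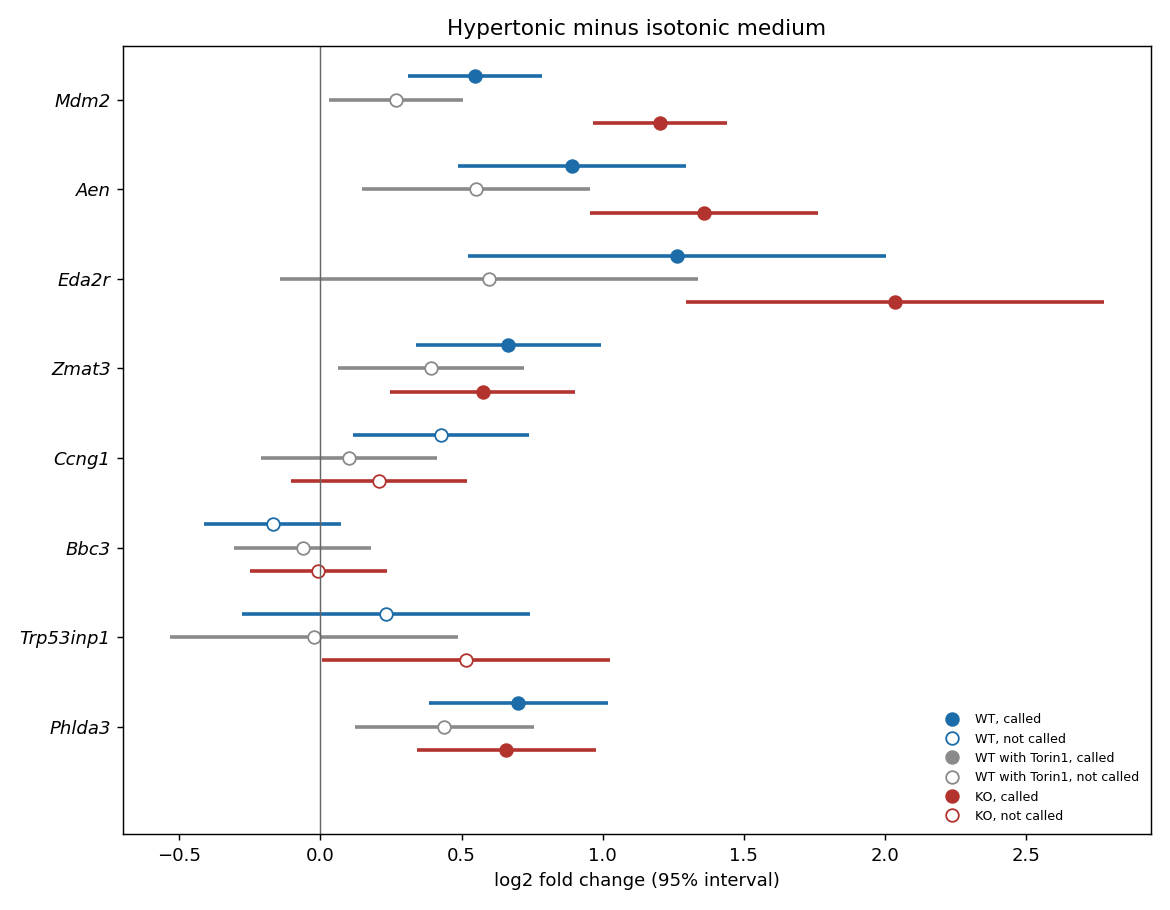
Hypertonic minus isotonic change of the 8 p53 targets on the log2 scale, with 95% intervals from limma, in WT cells (blue), WT cells with Torin1 (grey) and KO cells (red); filled symbols are called at an adjusted p below 0.05. Eda2r has the largest value in each series (1.26, 0.60 and 2.03), and the values for WT with Torin1 lie below those for WT for all genes but Bbc3.

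The difference between the lines was tested directly, as the hypertonic change in KO cells minus that in WT cells, an order in which 3.35% of all genes tested were called higher and 6.15% lower. Of the 8 genes only Mdm2 was called, at 0.65 ± 0.16 (95% interval 0.32 to 0.99, limma adjusted p = 0.0171). Within the numbers 1, 2 and 4 its difference was 0.31, 0.78 and 0.87. It stayed called without isotonic KO array 1 (0.66, limma adjusted p = 0.0358) and without the arrays of number 4 (0.55, 0.0480), but not without hypertonic WT array 2 (0.62, 0.0527). Aen (0.47 ± 0.27, limma adjusted p = 0.348) and Eda2r (0.77 ± 0.49, 0.412) had differences above 0 that did not pass. The differences of Zmat3 (-0.09), Ccng1 (-0.22), Bbc3 (0.16), Trp53inp1 (0.28) and Phlda3 (-0.04) had limma adjusted p-values from 0.637 to 0.951. A p that misses the threshold does not show that the lines respond alike. The 95% interval was -0.49 to 0.41 for Phlda3 and -0.56 to 0.37 for Zmat3. With the array number as a block Mdm2 was again the only one of the 8 called, while the count over all genes went from 1492 to 2280.

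Torin1 was added to ask whether the response depends on mTOR. In WT cells with Torin1 none of the 8 genes was called in hypertonic against isotonic medium, where 3.37% of all genes tested were called in either direction. At an unadjusted p below 0.05 there were 4 of 8, against 16.6% of all genes. Mdm2 read 9.54, 9.48 and 9.77 in isotonic medium, against 9.67, 10.0004 and 9.93 in hypertonic medium, overlapping (0.27, limma adjusted p = 0.228). Eda2r read 8.45, 8.15 and 9.22 in isotonic medium, against 8.85, 8.95 and 9.82 in hypertonic medium, overlapping (0.60, limma adjusted p = 0.441). In both genes array 4 stood at or near the top of its group.

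Aen and Phlda3 were the genes whose groups did not overlap under Torin1, where 11.2% of all genes lay above without overlap. Aen read 8.43, 8.59 and 8.63 in isotonic medium, against 9.04, 9.20 and 9.05 in hypertonic medium (0.55, limma adjusted p = 0.137). Phlda3 read 11.55, 11.51 and 11.86 in isotonic medium, against 11.89, 12.29 and 12.05 in hypertonic medium (0.44, limma adjusted p = 0.129). Without the arrays of number 4, Phlda3 passed (0.56, limma adjusted p = 0.0322). For Zmat3 the difference was 0.39 (limma adjusted p = 0.200), and for Ccng1 (0.10), Bbc3 (-0.06) and Trp53inp1 (-0.02) it was nearer to 0. The median of the 8 genes was 0.33, against 0.02 over all genes.

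The test of whether Torin1 changed the hypertonic response called none of the 8 genes and 0 of all 15711 genes (limma adjusted p = 1.00 for each of the 8), with 0 of the 8 and 317 of all genes at an unadjusted p below 0.05. The differences, with Torin1 minus without, were below 0 for 7 of the 8 genes, with a median of -0.28 against 0.00 over all genes. For Mdm2 the difference was -0.28, with a 95% interval from -0.62 to 0.06, and for Eda2r it was -0.66, from -1.71 to 0.38. These intervals hold both no change and a loss of the whole WT response. Within number 1 all 8 genes had a difference below 0, but in number 2 only 3 of 8 and in number 4 only 4 of 8 did.

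In isotonic medium none of the 8 genes was called with Torin1 against without, nor any of the 15711 genes tested. At an unadjusted limma p below 0.05 there were 470 of all genes and none of the 8. A p that misses the threshold does not show that Torin1 had no effect there. The differences ran from -0.33 for Zmat3 to 0.00 for Bbc3, with limma adjusted p = 1.00 for each. In hypertonic medium none of the 8 was called either, where 0.115% of all genes were called. All but Bbc3 were lower with Torin1, and 6 of 8 had an unadjusted p below 0.05, against 12.1% of all genes. The groups lay apart, with every Torin1 array below every array without it, for 5 of the 8, against a background of 7.95%. They were Mdm2, Aen, Zmat3, Ccng1 and Phlda3. The hypertonic WT arrays enter this comparison and the hypertonic change in WT cells, so the 2 sets of values are not independent.

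The differences in hypertonic medium were -0.33 for Mdm2 (limma adjusted p = 0.218), -0.63 for Aen (0.166), -0.77 for Eda2r (0.386), -0.60 for Zmat3 (0.118), -0.41 for Ccng1 (0.247) and -0.43 for Phlda3 (0.230). In number 1 they were the steepest, at -1.38 for Eda2r against -0.50 and -0.43 in numbers 2 and 4, and at -0.99 for Aen against -0.40 and -0.50. Within the numbers 8, 7 and 7 of the 8 genes were below 0. Without the arrays of number 4, Eda2r (-0.94, limma adjusted p = 0.0380), Zmat3 (-0.72, 0.0230) and Ccng1 (-0.55, 0.0213) were called lower with Torin1, among 749 genes called in all against 18 with them. With the array number as a block 220 genes were called and none of the 8.

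**Figure D3:**
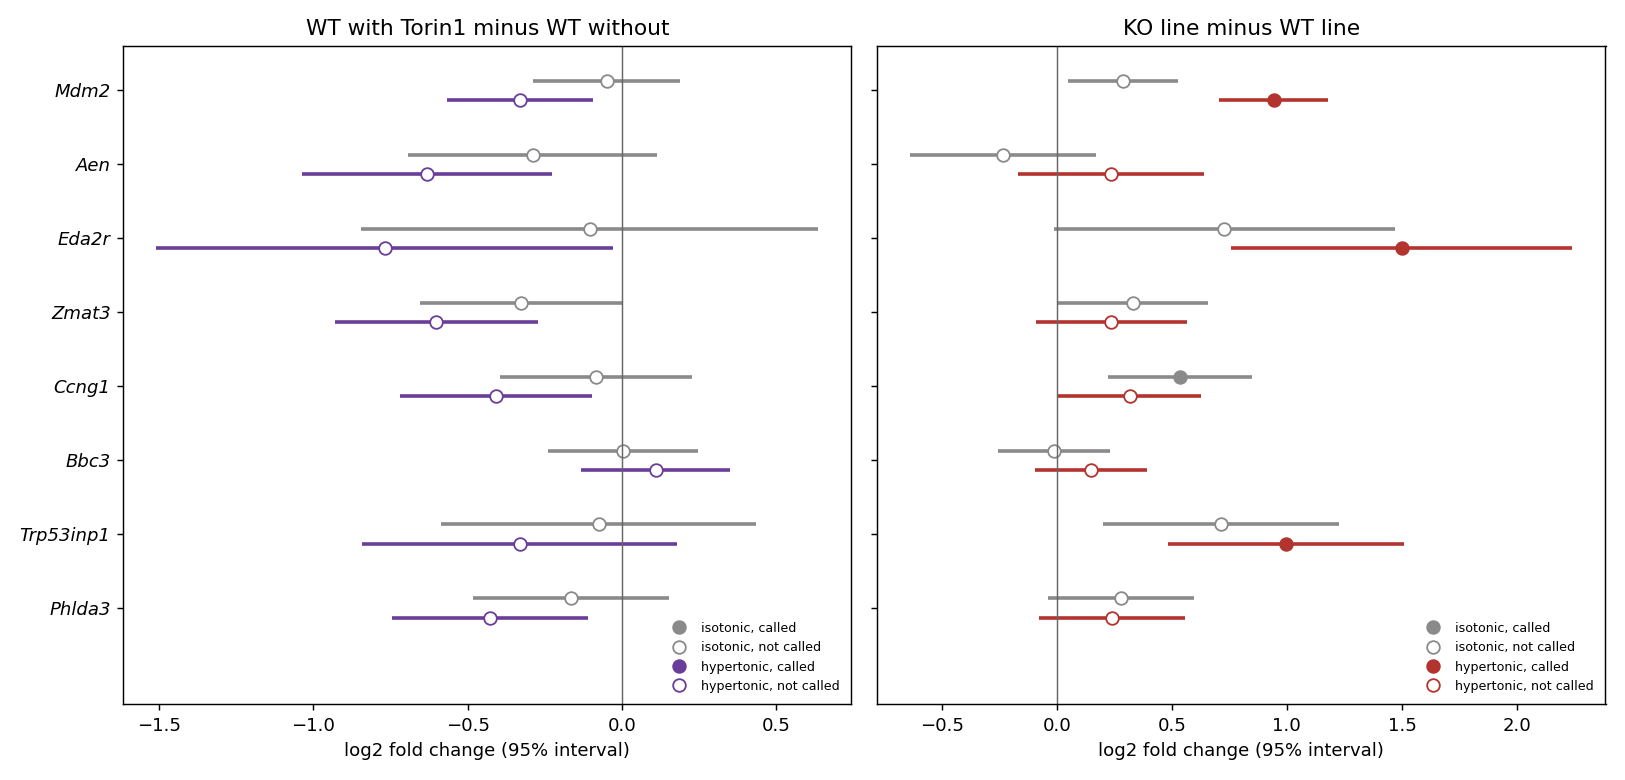
Left, WT with Torin1 minus WT without it; right, KO minus WT line; both on the log2 scale with 95% intervals from limma, in isotonic (grey) and hypertonic medium (purple or red), filled where called at an adjusted p below 0.05. No Torin1 value is called, and Mdm2 (0.94), Eda2r (1.50) and Trp53inp1 (1.00) are called in hypertonic KO cells.

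The lines were also compared within each medium, which sets KO against WT in level rather than in response. In isotonic medium Ccng1 alone of the 8 genes was higher in KO cells, by 0.54 ± 0.15 (limma adjusted p = 0.0210), where 7.78% of all genes were called higher and 6.84% lower. The isotonic values of both lines are those given above. Its KO arrays lay above its WT arrays, as did those of Mdm2 (0.29, limma adjusted p = 0.105), against a background of 17.2% without overlap. Trp53inp1 was at 0.71 ± 0.24 (limma adjusted p = 0.0595) and Eda2r at 0.73 ± 0.35 (0.203). Ccng1 did not pass once isotonic KO array 1 (0.54, limma adjusted p = 0.0548) or 2 (0.0830) or isotonic WT array 1 (0.102) or 2 (0.0697) was removed. With the array number as a block, Mdm2 (limma adjusted p = 0.0478) and Trp53inp1 (0.0482) were called besides Ccng1, but with isotonic KO array 1 left out of that fit only Ccng1 was.

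This comparison differed between the array numbers. In number 1 all 8 genes were higher in KO cells, by 0.31 to 1.54, in number 2 they were so for 6 of 8, and in number 4 for 2 of 8, with differences from -0.80 to 0.20. The number 1 values rest on isotonic KO array 1, the array with the conflicting genotype label, and cannot be given without it. Without the arrays of number 4 there were 6 of 8 called higher in KO cells, with Trp53inp1 at 1.13 and Eda2r at 1.16, and 3809 of all genes were called, against 2298 with them. That fit rests on isotonic KO arrays 1 and 2 alone, so array 1 weighs on it too.

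In hypertonic medium 3 of the 8 genes were higher in KO cells, against 13.8% of all genes called higher and 18% lower. They were Mdm2 (0.94 ± 0.11, limma adjusted p = 1.48e-05), Eda2r (1.50 ± 0.35, 0.00374) and Trp53inp1 (1.00 ± 0.24, 0.00483). Every KO array lay above every WT array for these 3 and for Zmat3 and Ccng1, 5 of 8, with a background of 21.8%. Aen (0.24, limma adjusted p = 0.371), Zmat3 (0.24, 0.260), Bbc3 (0.15, 0.339) and Phlda3 (0.24, 0.242) did not pass. Ccng1 (0.32, 0.114) passed with the array number as a block (0.0452) and without the arrays of number 4 (0.34, 0.0301). With arrays centred on their medians, which put the median of all genes at 0.18, 7 of the 8 were called. Without the arrays of number 4 the count was 4 of 8. Markers of cell type moved with the line: Thy1 was higher in KO cells by 3.88 (isotonic) and 4.01 (hypertonic), and Pdgfra by 2.25 and 1.86. Lum was called higher as well, with WT arrays at 4.14 to 4.65, below the filter level of 5.86, and KO arrays at 5.91 to 7.68, so it passed the filter through the KO arrays alone. In all, 4 of 11 fibroblast markers were called higher in isotonic and 5 of 11 in hypertonic medium, with the epithelial marker Cdh1 (1.72 and 0.79) and the endothelial marker Tek (2.05 and 2.44) called in both. The leukocyte marker Csf1r was lower in hypertonic KO cells (-1.36, limma adjusted p = 0.000566). The part of these markers in the result was not tested.

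Over the 18 arrays the 8 genes tended to move together. Pearson's r between their levels was above 0 for 24 of 28 pairs, with a median of 0.81 and a range from -0.06 to 0.96. Pairs with Bbc3 gave the lowest values. After the group means were removed, which takes out medium, drug and line, all 28 pairs had r above 0, from 0.29 to 0.84 with a median of 0.54. Eda2r with Ccng1 (0.84) and Zmat3 with Phlda3 (0.83) were the closest, and Bbc3, which did not follow the groups, was at 0.34 to 0.66 with the other 7. The arrays share numbers and the genes share arrays, so these values describe this set of arrays and carry no test. Pairs of other genes were not computed, so whether the 8 genes stand out from them is not known here.

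**Figure D4:**
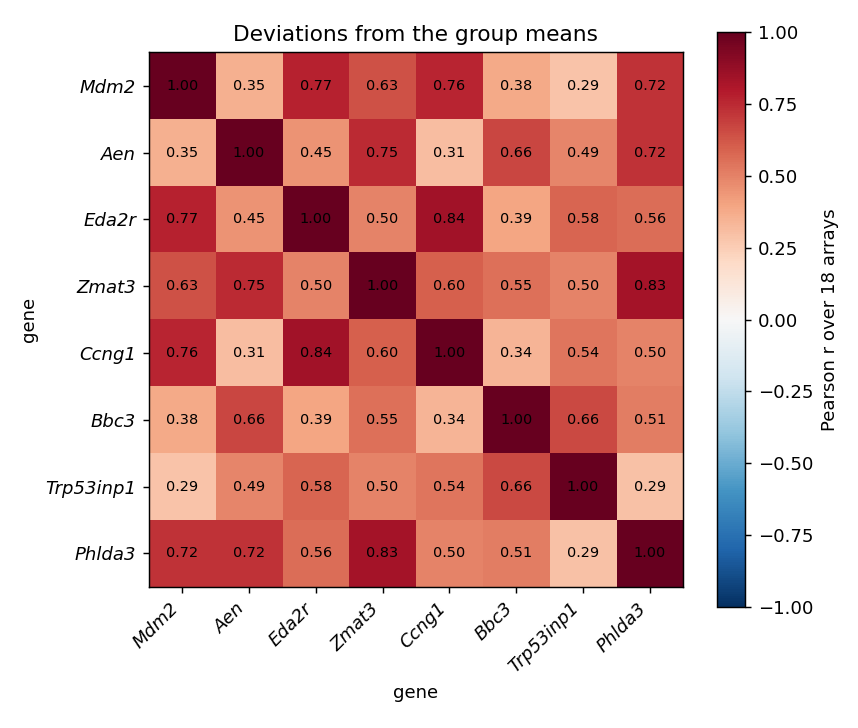
Pearson's r over 18 arrays between the deviations of the 8 p53 targets from their group means, a value for each pair of genes. All off-diagonal values are above 0, the lowest at 0.29 and the highest at 0.84.

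The rest of the p53 pathway was read from a list of 40 other genes described as p53 targets, of which 38 were tested. Whether each of them, Ddb2 included, is a p53 target in mouse cells was not checked. In WT cells hypertonic medium raised 1 of the 38, the translesion polymerase gene Polk (0.48, limma adjusted p = 0.0372), and lowered 3: the damage recognition gene Ddb2 (-0.50, 0.0403), the epoxide hydrolase gene Ephx1 (-0.43, 0.0149) and Trp53i13 (-0.40, 0.0123). Over all genes 3.94% rose and 4.3% fell. With the array number as a block 2 of the 38 rose and 5 fell, and without the arrays of number 4 the counts were 3 and 4. In both settings more of all genes were called as well, so the shares of 3.94% and 4.3% do not apply to them. None of the 4 named calls held without hypertonic WT array 1 (limma adjusted p = 0.0707 for Polk, 0.198 for Ddb2, 0.0800 for Ephx1 and 0.0579 for Trp53i13). Ddb2 was also lost without isotonic WT array 1 (0.147) or 4 (0.115) or hypertonic WT array 2 (0.0812), Ephx1 without isotonic WT array 4 (0.0628) and Trp53i13 without isotonic WT array 2 (0.0574). Polk passed only with hypertonic WT array 2 as the one left out, and reached 0.112 without isotonic WT array 2. The median was 0.06, against 0.02 over all genes and 0.61 for the 8 genes described above. Both lists were chosen with earlier results of these data known, so the gap between their medians is a description only. With Torin1 none of the 38 was called, with a median of 0.02. There 1 rose and 1 fell with the block, and 2 rose and 1 fell without number 4, where more of all genes were called too.

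In KO cells 5 of the 38 rose and 5 fell, where 12.9% of all genes rose and 17.2% fell, so these counts are near or below the background. They were 6 and 7 with the array number as a block. The list had a median of -0.04, which turned to 0.11 with arrays centred on their medians. Polk (0.91, limma adjusted p = 0.000101), the apoptosome gene Apaf1 (0.78, 0.000138), Cdip1 (0.58, 0.00102), Gtse1 (0.57, 0.00393) and Ei24 (0.50, 0.0119) rose. Ddb2 (-1.05, 5.17e-05), the stress-induced mTORC1 inhibitor gene Sesn1 (-0.88, 0.00018), Trp53i13 (-0.86, 7.34e-06), the ribonucleotide reductase gene Rrm2b (-0.59, 0.0155) and Trp53i11 (-0.57, 0.00544) fell. The part of p53 in these rises and falls was not tested. Without isotonic KO array 1 the counts were 5 and 4, Rrm2b no longer passing (limma adjusted p = 0.0502), and without the arrays of number 4 they were 5 and 8, again without Rrm2b (0.121). Rrm2b also missed without isotonic KO array 4 (0.0532) and likewise without hypertonic KO array 4 (0.0822), and Ei24 without isotonic KO array 4 (0.0514) and likewise without hypertonic KO array 2 (0.0589). The KO response minus the WT response was called for Apaf1 (0.75, limma adjusted p = 0.0105), Cdip1 (0.55, 0.0386) and Ephx1 (0.50, 0.0359) above 0, and for Sesn1 (-0.78, 0.0194) and Trp53i13 (-0.46, 0.0327) below. Without isotonic KO array 1 the differences of Cdip1 (0.0575), Ephx1 (0.0630) and Trp53i13 (0.0781) did not pass, and each of these 3 calls was lost without several other single arrays as well. Sesn1 missed without isotonic WT array 2 (0.0526) and likewise without hypertonic KO array 2 (0.0562), whereas the difference of Apaf1 passed without any single array.

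**Figure D5:**
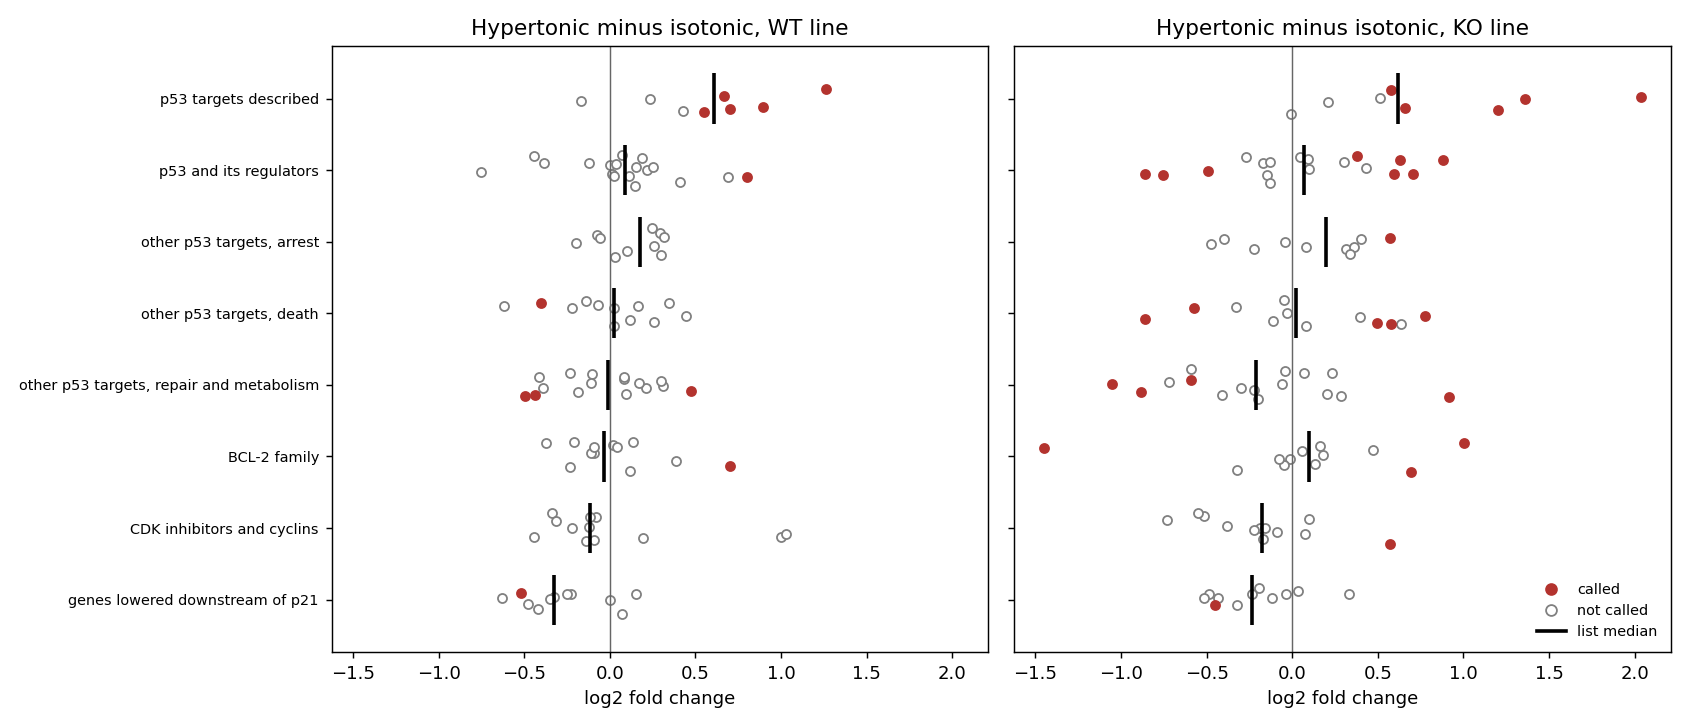
Hypertonic minus isotonic change on the log2 scale in WT (left) and KO cells (right), a point per gene for the 8 p53 targets described and 7 lists of related genes; red points are called at an adjusted p below 0.05 and the black bar is the list median. The medians of the 8 targets are 0.61 and 0.62, while those of the 3 lists of other p53 targets lie between -0.21 and 0.20.

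Of 18 tested regulators of p53, hypertonic medium raised 1 and lowered 0 in WT cells, where 3.94% of all genes rose and 4.3% fell. It was the p53 relative Trp63 (0.80, limma adjusted p = 0.0329). The counts were 3 and 3 with the array number as a block, and also without the arrays of number 4 and with array weights. More of all genes were called in these settings too, so 3 and 3 are not to be read against 3.94% and 4.3%. Trp63 no longer passed once isotonic WT array 1 (0.0809) or 2 (0.108) or hypertonic WT array 2 (0.115) or 4 (0.0669) was removed. In KO cells 5 rose: the acetyltransferase genes Ep300 (0.88, limma adjusted p = 0.000143) and Crebbp (0.63, 0.00038), the phosphatase gene Ppm1d (0.71, 0.0018), which is itself a p53 target, the deubiquitinase gene Usp7 (0.60, 0.00488) and the ubiquitin ligase gene Cop1. The background was 12.9% higher and 17.2% lower, and the counts were 6 and 3 with the block and also without number 4. In the same cells 3 fell, the kinase genes Atr (-0.86, 0.0144) and Chek2 (-0.76, 0.00474) and the gene of the p53-binding protein Trp53bp1 (-0.49, 0.0276). Cop1 (0.0568) and Trp53bp1 (0.0548) did not pass without isotonic KO array 1, nor without isotonic KO array 4 (0.0547 and 0.0945). Cop1 was also lost without isotonic KO array 2 (0.0637) and likewise without hypertonic KO array 1 (0.106), Trp53bp1 without hypertonic KO array 2 (0.0604) or 4 (0.0986), and Atr without hypertonic KO array 4 (0.0620).

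Among 12 tested genes of the BCL-2 family, which decide on mitochondrial cell death, the survival gene Bcl2l1 rose in WT cells (0.70, limma adjusted p = 0.0409), as it did in KO cells (1.01, 0.00118). In WT cells it did not pass once isotonic WT array 1 (0.153) or 2 (0.129) or hypertonic WT array 1 (0.193) or 2 (0.0752) was removed. In KO cells Mcl1, another survival gene, rose (0.69, limma adjusted p = 0.001) and Bcl2 fell (-1.45, 0.000296), which makes 2 higher and 1 lower, and 3 and 2 with the block or without number 4. Over all genes 3.94% rose and 4.3% fell in WT cells, and 12.9% rose and 17.2% fell in KO cells. The KO counts of this family are near or below those shares. The change of Mcl1 in KO cells lay above that in WT cells by 0.92 (limma adjusted p = 0.00714). Of 12 cyclins and inhibitors of cyclin-dependent kinases none passed in WT cells, and 1 rose in KO cells, Ccng2 (0.57, limma adjusted p = 0.00115), a relative of Ccng1. These counts are below the shares over all genes given above. Without the arrays of number 4 there were 2 higher and 1 lower in WT and 1 higher and 3 lower in KO cells; with array weights the WT counts were 2 and 0 and the KO counts 1 and 3, and with the block 0 and 0 and 1 and 1. Of 11 cell cycle genes that are lowered downstream of Cdkn1a, 1 fell in each line, the cyclin gene Ccnb2, at -0.52 in WT (limma adjusted p = 0.0280) and at -0.45 in KO cells (0.0184). The list medians were -0.33 in WT and -0.23 in KO cells, against 0.02 over all genes in each. The count lower was 2 in WT and 3 in KO cells with the array number as a block, 4 and 5 without the arrays of number 4 (1 being higher in KO cells) and 3 and 5 with array weights. Over all genes 4.3% fell in WT and 17.2% in KO cells in the main fit. In WT cells more of all genes were called with the block, without number 4 and with array weights. The WT counts of these lists in those settings are therefore not to be read against the main-fit shares. In WT cells Ccnb2 did not pass once isotonic WT array 1 (0.107) or 2 (0.0896) or hypertonic WT array 1 (0.148) or 2 (0.0764) was removed. In KO cells it did not once isotonic KO array 2 (0.0855) or hypertonic KO array 1 (0.0621) or 4 (0.0501) was removed.

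Between the lines, 7 of the 38 other targets were higher and 3 lower in isotonic KO cells, and 10 were higher and 3 lower in hypertonic ones. Over all genes 7.78% were higher and 6.84% lower in isotonic, and 13.8% and 18% in hypertonic KO cells, so the counts of 3 lower are near or below the background. The death receptor gene Tnfrsf10b (1.06 and 0.97) and Ephx1 (0.69 and 1.19) were higher in KO cells in both media. Pmaip1, which encodes the killer protein NOXA (-1.29 and -1.02), and Trp53i11 (-1.40 and -1.75) were lower in both (limma adjusted p from 2.65e-07 to 0.00171 for these 8 values). Without isotonic KO array 1 the isotonic counts were 5 and 2, and without the arrays of number 4 they were 14 and 6, against 16 and 7 in hypertonic medium. More of all genes were called in isotonic medium without number 4 as well, so 14 and 6 are not to be read against 7.78% and 6.84%. With the array number as a block the isotonic counts were 10 and 5 and the hypertonic ones 13 and 5.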

How the data were processed

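The members and lists were chosen with earlier results of these data known. The deposited values are log2 signals made by the authors with RMA in R (version 2.11.1), according to the submitters' processing notes, and were used as they are. No genome build is named for the arrays in the labels. Of 34760 probe sets 21640 name 1 gene, 1321 several and 11799 none, and a gene is its probe set of highest mean (954 of 19937 genes have more than 1). A gene was tested if at least 1 group mean exceeded 5.86 log2, the 30th percentile of the table. Probe set signals are not per length, so levels were compared within a gene only.

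limma 3.58.1 in R 4.3.3 fitted the 6 group means to the 18 arrays together (12 residual and 3.29 prior degrees of freedom). It tested 9 contrasts, with the Benjamini-Hochberg adjustment over 15711 genes in each. The fit was tested on simulated data with independent noise for each array, so that test does not cover any pairing of the arrays. Within groups arrays correlated at 0.968 to 0.997. After group means were removed, arrays of the same number in the groups compared correlated at 0.16 to 0.85 over the genes (21 pairs). Arrays of different numbers correlated at -0.78 to 0.62, so the ranges overlap. For 15 of 18 arrays the closest array of another group had the same number. The numbers were thus taken to pair the arrays, from the data and not from the labels. The main fit leaves the pairing out, and the fit with the number as a block was an alternative.

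Named genes are the members, at most 4 of the largest called genes of each list and contrast, Nfat5 and 8 genes of the most similar profile. Other alternatives were no filter, a filter at the 50th percentile, averaged probe sets, renewed quantile normalization, centring on array medians, a trended and robust prior, array weights, the groups of a contrast alone and each array left out. Leaving out all arrays of number 4, and the block without isotonic KO array 1, were chosen after seeing the data. Eda2r overlaps Gm18111 and Zmat3 overlaps 4930429B21Rik in the gene table, and whether their probes tell these apart was not tested.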

Additional observations from a re-analysis of the deposited data

Results flagged for a closer look

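The hypertonic response of Mdm2 differed between the lines by the test of the difference itself. It was 0.65 ± 0.16 larger on the log2 scale in KO than in WT cells (limma adjusted p = 0.0171), with a rise of 1.20 in KO and 0.55 in WT cells, and larger in KO in each of the 3 array numbers. Each genotype is 1 line, so line and genotype cannot be told apart.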

How the results depend on the processing

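No called change of the 8 genes changed sign under any alternative run. Counts out of 8 did move. The count for the hypertonic change in WT was 5, and it was 7 with array weights (6 higher, and Bbc3 lower), 6 with the replicate block and without number 4, 0 in the fit on that contrast's groups alone and 1 to 6 with an array left out. With Torin1 it went from 0 to 4 with array weights and to 1 without number 4. In KO cells it was 5, and 4 to 6 with an array left out. For Torin1 in hypertonic medium it went from 0 to 3 with array weights and to 3 without number 4. For KO against WT in isotonic medium it was 1, and 5 with array weights, 3 with the replicate block, 6 without number 4 and 0 to 2 with an array left out. In hypertonic medium it was 3, and 7 with centred arrays, 5 with array weights and 4 with the replicate block or without number 4. For the KO minus WT difference it was 1, and 3 with array weights and 0 to 1 with an array left out. The cause of these moves was not tested.

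Counts over all genes also moved by over 1.5 times, again with no cause tested. For the hypertonic change in WT, 1295 became 4726 with array weights, 2360 with the replicate block (2176 with isotonic KO array 1 also left out), 3333 without number 4, 267 on the contrast's groups alone and as few as 535 with an array left out. With Torin1, 530 became 2031, 1235 with the block, 1564 without number 4, 23 on its groups alone and as few as 161. For Torin1 in hypertonic medium, 18 became 1210, 220 with the block, 749 without number 4, 0 on its groups alone and 0 to 118 with an array left out. In isotonic medium, 0 became 25 without isotonic WT array 1. For KO against WT, 2298 became 3970 with array weights and 3809 without number 4 in isotonic medium, and 5007 became 8403 with array weights in hypertonic medium. For the KO minus WT difference, 1492 became 4241 with array weights, 2280 with the block, 2807 without number 4 and as few as 833 with an array left out. The Torin1 difference called 0 genes, and 1 with array weights or without number 4. Centring the arrays moved the share of calls that were higher from 42.9% to 68.9% for the KO response, from 43.4% to 69.8% for KO against WT in hypertonic medium and from 35.3% to 69.8% for the KO minus WT difference. Renewed quantile normalization moved it from 49.1% to 59.1% with Torin1. The replicate block added Ccng1 to the WT response and to KO against WT in hypertonic medium, and Mdm2 and Trp53inp1 to KO against WT in isotonic medium. It changed no other call of the 8 genes. Precision is bounded by there being 3 arrays in a group.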

Other observations

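The 8 genes whose levels followed the mean standardized profile of the 8 p53 targets most closely over the 18 arrays were Cdk2ap2 (r = 0.944), Zfp667 (0.939), Slc19a2 (0.934), Atp13a3 (0.925), Dennd2c (0.924), Sox4 (0.924), Tmed5 (0.919) and Trpv1 (0.919). They are named by the size of r alone, as a description with no test. Slc19a2, a thiamine transporter gene, changed by 1.21 in hypertonic WT and 1.37 in hypertonic KO cells, and Sox4, a transcription factor gene, by 0.31 and 0.96. The arrays share numbers and groups, which such values include.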
